A study of Mus musculus with 10 samples.

Results

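Classical major histocompatibility complex (MHC) class I molecules and the proteins that supply them with peptide were described here through 10 genes: the heavy chain genes H2-K1 and H2-D1, the light chain gene B2m, the transporter genes Tap1 and Tap2, the tapasin gene Tapbp, the immunoproteasome genes Psmb8, Psmb9 and Psmb10, and the transactivator gene Nlrc5. They were chosen by name, as rows of the deposited table whose gene symbol equals one of the 10, and all 10 of 54343 listed genes were found. The table gives FPKM, a read density that corrects for how long a gene is and how deeply a library was sequenced, for 5 libraries of parental MC38 cells and 5 libraries of MC38.T4 cells, both cultured in the same medium. MC38 is a mouse tumour line, labelled wild type, that the treatment description calls a colon cancer line and the tissue label a melanoma. MC38.T4, labelled as having low mesothelin expression, descends from MC38 cells transfected with a plasmid for human mesothelin and sorted as single clones. The clone named MC38.huMSLN.34 was grown in C57/BL6 mice, its tumours were removed about 25 days after implantation, and the dissociated tumour cells were passaged in culture for 10 generations. MC38.T4 was then founded from a single cell with low mesothelin. It is therefore 1 clone, and transfection, cloning, growth in a mouse and passage cannot be told apart as sources of a difference from the uncloned parent.

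Class I molecules display peptides from inside the cell to CD8 T cells. Proteasomes cut proteins into peptides, TAP1 and TAP2 pump the peptides into the endoplasmic reticulum, and tapasin holds an empty heavy chain with its light chain, beta-2 microglobulin, at the transporter until a peptide binds. Interferon gamma induces most of these genes, including catalytic subunits that take the place of constitutive ones in the immunoproteasome, and NLRC5 is a transactivator of class I genes that acts through the proteins bound to their SXY promoter module. In the mouse, the heavy chain, transporter and tapasin genes, Psmb8 and Psmb9 lie in the MHC on chromosome 17. B2m lies on chromosome 2, and Psmb10 and Nlrc5 lie on chromosome 8.

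Promoter sequences are shown for the heavy chains and the light chain because these genes share a promoter module and did not change alike. The stretch between Psmb9 and Tap1 is shown because these 2 genes diverge from it and changed by very different amounts. All are from RefSeq on build GRCm38.p6, which is not the authors' build GRCm39, and 8 of the 10 genes had an entry in the promoter table, all but Tap2 and Nlrc5. The first 3 sequences are the 250 bases before an annotated start, and the fourth is the whole stretch between both genes. Capitals mark matches on either strand. They mark the pair TGACG and ATTGG at a fixed spacing of 20 bases (letters of the X2 and Y boxes). They also mark AANNGAAA (a pair of interferon regulatory factor half-sites) and GGGATTCCC (of the NF-kB type, a palindrome but for its central base). In the fourth sequence they mark TGACG alone, and the letters of ATTGG, found near its left end on the other strand, are left unmarked.
H2-K1, chr17:34000334-34000583, minus strand: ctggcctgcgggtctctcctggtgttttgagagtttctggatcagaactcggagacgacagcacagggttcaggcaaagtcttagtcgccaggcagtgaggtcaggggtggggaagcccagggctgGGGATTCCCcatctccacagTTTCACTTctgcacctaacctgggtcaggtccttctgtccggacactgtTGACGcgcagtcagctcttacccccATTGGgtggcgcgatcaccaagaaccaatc
H2-D1, chr17:35262844-35263093, plus strand: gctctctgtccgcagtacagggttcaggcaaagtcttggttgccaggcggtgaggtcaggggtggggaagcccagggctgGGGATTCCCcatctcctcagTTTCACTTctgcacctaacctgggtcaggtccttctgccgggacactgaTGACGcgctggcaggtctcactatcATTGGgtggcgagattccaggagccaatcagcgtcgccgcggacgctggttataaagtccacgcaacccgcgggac
B2m, chr2:122147437-122147686, plus strand: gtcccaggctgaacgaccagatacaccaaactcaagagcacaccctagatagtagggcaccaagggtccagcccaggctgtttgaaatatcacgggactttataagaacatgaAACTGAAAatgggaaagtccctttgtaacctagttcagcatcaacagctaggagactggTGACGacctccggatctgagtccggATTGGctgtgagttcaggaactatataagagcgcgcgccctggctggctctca
Between Psmb9 and Tap1, chr17:34187331-34187555, plus strand: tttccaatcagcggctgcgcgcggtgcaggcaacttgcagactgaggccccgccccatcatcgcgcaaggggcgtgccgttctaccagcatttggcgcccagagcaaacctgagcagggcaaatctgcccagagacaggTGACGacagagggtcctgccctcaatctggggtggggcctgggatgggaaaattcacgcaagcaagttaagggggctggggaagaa

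The spaced pair of boxes was found in H2-K1, H2-D1 and B2m and in 0.0944% of all 32851 promoter windows of 300 bases. These letters and the spacing were chosen after the 3 sequences had been read, so the share is a description. AANNGAAA was present in the same 3 genes and in 23.9% of all windows, and GGGATTCCC in H2-K1 and H2-D1 and in 0.353% of all windows. The motifs did not overlap each other in the printed sequences. Shifted by 46 bases, the H2-K1 and H2-D1 stretches were identical at 169 of 204 compared bases (82.8%). A match here is a description of letters and not a measured site.

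FPKM summed to between 442183 and 484460 per library, total reads are not known here, and the steps of low values gave depths from 0.875 to 1.14 relative to MC38 replicate 1. MC38 replicate 1 had the lowest sum, and MC38.T4 replicate 4 stood out with 125 FPKM of the nuclear RNA Malat1, against 53.1 to 75.9 in the other 9 libraries. Nothing in the labels says that replicates were separate cultures. The p-values therefore reflect only how far these libraries spread, which may be technical. The lines did not carry the defining markers of their labels: all 11 colon epithelial markers but Cdh1 stayed under 1 FPKM in every library, as did 6 of 7 melanocyte markers, the exception being Mitf. Of 14 leukocyte markers 13 stayed under 1 FPKM in every library, Cd3e, Adgre1 and Ncr1 were listed at 0 throughout, and the list summed to 3.23 to 4.14 FPKM in MC38 and to 1.17 to 1.62 in MC38.T4. Cd74 (mean 2.50 FPKM in MC38 and 0.947 in MC38.T4) was the exception and made up most of the leukocyte sum in each line. The 5 endothelial markers all stayed under 1 FPKM and summed to 0.388 to 0.517 in MC38 and to 0.889 to 1.03 in MC38.T4. Of 8 fibroblast markers 5 were tested, Thy1 was listed at 0, and the list summed to 34.7 to 37.9 FPKM in MC38 and to 349 to 355 in MC38.T4. Col3a1 (mean 6.44 FPKM in MC38 and 247 in MC38.T4) made up most of the MC38.T4 sum. Col1a1 and Lum, like Thy1, stayed under 1 FPKM in every library. The part of any of these marker lists in the class I values was not tested.

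Of the 10 genes, 8 were higher in MC38.T4, B2m was lower and Nlrc5 did not pass (limma on log2(FPKM + 1), adjusted p under 0.05 over 11110 tested genes). All 10 passed the filter of at least 1 FPKM in at least 5 libraries. Over all tested genes 86.0% passed this test in either direction and 43.1% passed with a higher value in MC38.T4, so 9 of 10 called is near the background. The libraries of the lines did not overlap for 9 of the 10 genes, as for 77.4% of tested genes. In bulk RNA, fewer cells with a transcript and less of it per cell cannot be told apart. The genes H2-K1, Tapbp, Psmb8, Psmb9 and Psmb10, 5 in all, were at least 2-fold higher, a change that 10.0% of tested genes reached in that direction. The median log2 change of the 10 genes was 0.89, and that of all tested genes 0.00077. Without MC38 replicate 1 and MC38.T4 replicate 4, which stand apart, all 10 passed, 8 higher and 2 lower, in a setting chosen after seeing the data. The count of higher genes was 7, not 8, with TPM, quantile normalization, equal medians, the replicate block and 6 of 10 fits that left out 1 library, because H2-D1 was then not called higher.

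**Figure D1:**
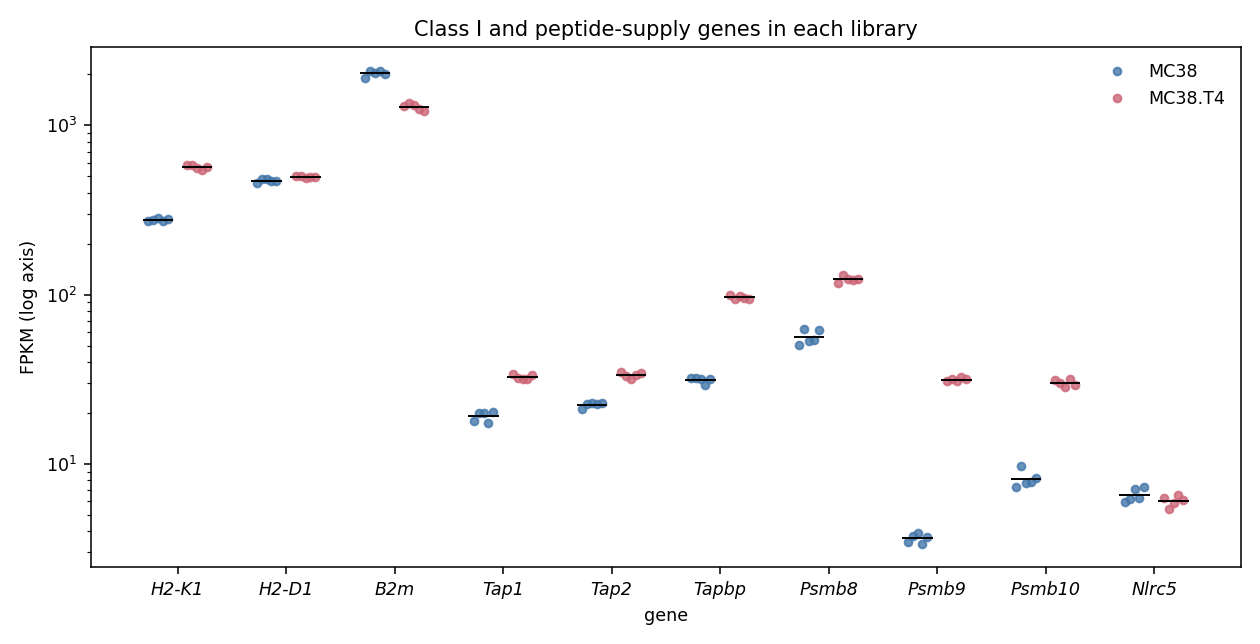
FPKM on a log axis of the 10 genes in each of 5 MC38 (blue) and 5 MC38.T4 (red) libraries, with the mean of each line as a bar. The points of the lines are separate for 9 genes and overlap for Nlrc5, and B2m is the only one of the 9 with MC38 on top.

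The 2 heavy chains did not move alike. H2-K1 encodes the K heavy chain, which presents peptide to CD8 T cells. Its level was 273, 276, 283, 271 and 281 FPKM in MC38 replicates 1 to 5, and 581, 586, 557, 548 and 566 FPKM in MC38.T4 replicates 1 to 5. Every MC38.T4 library was far above every MC38 library. H2-K1 rose 2.05-fold (log2 change 1.03, SE 0.03, limma adjusted p = 2.41e-13). H2-D1, the D heavy chain, stood at 456, 481, 481, 469 and 470 FPKM in MC38 and at 503, 505, 487, 492 and 498 FPKM in MC38.T4. Its groups were separate by a narrow gap, between 481 and 487 FPKM. The log2 change of H2-D1 was 0.08 (SE 0.03, 95% interval 0.01 to 0.14, limma adjusted p = 0.0332). This call was lost after rescaling to TPM (log2 change 0.03, adjusted p = 0.331) and with a shift to equal medians (0.05, adjusted p = 0.178), and the sign turned with quantile normalization (-0.056, adjusted p = 0.103). It was also lost in 6 of 10 fits that each left out 1 library (MC38 replicate 1, 4 or 5, or MC38.T4 replicate 1, 2 or 5, adjusted p from 0.0512 to 0.0718).

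By FPKM, the order of the heavy chains turned over between the lines. The ratio of H2-K1 to H2-D1 averaged 0.588 ± 0.011 over the MC38 libraries and 1.14 ± 0.02 over those of MC38.T4 (SD, n = 5 each), with ranges of 0.575 to 0.598 and 1.11 to 1.16. FPKM is scaled by gene length, but the lengths used are not given. Which heavy chain is the higher within a line is therefore uncertain. The change of their ratio between the lines does not depend on length. Heavy chains and related class I genes share sequence: 8.79% of the 50-base words of the longest coding H2-K1 transcript also occurred in transcripts of another gene (GENCODE vM21), and 14.3% of those of H2-D1. With words of 100 bases the shares were 0% and 4.64%, and no such word was common to both heavy chains. How the authors handled shared reads is not stated, and both heavy chains, H2-D1 more than H2-K1, are uncertain to that extent. For B2m, Psmb8, Psmb9, Psmb10 and Nlrc5 no word of 50 bases was shared.

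B2m, the light chain that pairs with class I heavy chains, went the other way. It stood at 1902, 2094, 2039, 2091 and 1997 FPKM in MC38 and at 1302, 1362, 1327, 1245 and 1223 FPKM in MC38.T4. Even the lowest MC38 library was well above the highest MC38.T4 library. B2m fell by 0.65 on the log2 scale (SE 0.04, 1.57-fold lower, limma adjusted p = 1.39e-09). It was still the highest of the 10 genes in every library, the 12th highest of all tested genes in MC38 and the 34th in MC38.T4.

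Measured against B2m within each library, both heavy chains were higher in MC38.T4. The H2-K1 to B2m ratio was 0.143, 0.132, 0.139, 0.130 and 0.141 in MC38 and 0.446, 0.430, 0.419, 0.440 and 0.463 in MC38.T4. The lines were far apart on this measure, which does not depend on the library total. The ratio was 3.21-fold higher (log2 difference 1.68, SE 0.04, exact permutation p = 0.00794, two-sided, and 0.00794 adjusted over 5 ratios). The H2-D1 to B2m ratio was 0.240, 0.230, 0.236, 0.224 and 0.235 in MC38 and 0.386, 0.371, 0.367, 0.396 and 0.408 in MC38.T4, a 1.65-fold difference (log2 0.73, SE 0.03, exact permutation p = 0.00794). That p is the smallest that assigning 5 of 10 libraries can give. Since both heavy chains were higher and B2m lower with no overlap, the ratios had to separate, and the p adds nothing to the single genes. Where B2m is the divisor, 68.1% of all tested genes had a higher ratio in MC38.T4 with no overlap, and 80.3% had no overlap in either direction, so a higher ratio to B2m was common and the 2 heavy chains are not set apart by it. Both heavy chains together came to 0.370 ± 0.012 of B2m in the parent and to 0.825 ± 0.033 in the derived clone (SD, n = 5 each). In FPKM, B2m exceeded this sum of 2 heavy chains in every library of both lines. With the H2-Q4, H2-Q5, H2-Q6 and H2-Q7 heavy chains added, a sum chosen after the values were seen, the ratio was 0.466 ± 0.016 in the parent and 1.17 ± 0.05 in the clone, where it was above 1 in every library. The H2-Q genes are close copies of each other whose shared reads make them uncertain, so passing 1 is uncertain too.

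**Figure D2:**
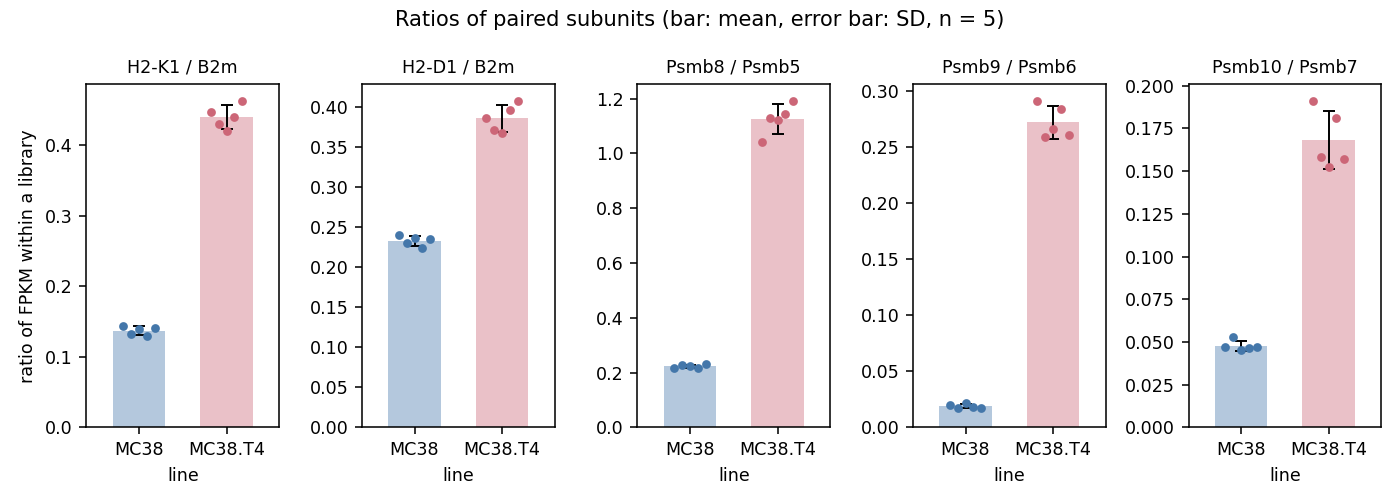
Ratio of FPKM within each library for 2 heavy chain to light chain pairs and 3 pairs of an inducible proteasome subunit and the constitutive subunit it replaces, in MC38 (blue) and MC38.T4 (red); bars are means, error bars SD, points libraries, n = 5 per line. Every ratio is higher in all MC38.T4 libraries, with a mean of 1.13 against 0.223 for Psmb8 to Psmb5 and of 0.272 against 0.0188 for Psmb9 to Psmb6.

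The transporter and its bridge to the heavy chain rose, tapasin most. Tapbp encodes tapasin, which edits the peptides that class I molecules bind. It stood at 32.3, 32.0, 31.8, 29.3 and 31.6 FPKM in MC38 and at 99.3, 94.2, 98.4, 95.9 and 94.9 FPKM in MC38.T4. Tapbp rose 3.07-fold (log2 change 1.59, SE 0.03, limma adjusted p = 3.76e-15), and 3.61% of tested genes had a higher change. Tap1 went from 19.1 ± 1.3 to 32.6 ± 1.0 FPKM and Tap2, its partner in the heterodimer, from 22.4 ± 0.8 to 33.6 ± 1.1 FPKM (SD, n = 5 each), with no overlap for either gene. Their log2 changes were 0.74 (SE 0.04, limma adjusted p = 4.05e-10) and 0.57 (SE 0.04, adjusted p = 6.99e-10). The 2 transporter genes were closer in FPKM in MC38.T4. The ratio of Tap1 to Tap2 lay between 0.773 and 0.887 in MC38 and between 0.942 and 0.996 in MC38.T4. No test was run on that ratio.

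All 3 immunoproteasome subunits rose. Psmb9 encodes LMP2 and shares its divergent promoter stretch with Tap1, printed above. It stood at 3.45, 3.73, 3.92, 3.38 and 3.69 FPKM in MC38 and at 30.8, 31.7, 30.7, 32.5 and 31.7 FPKM in MC38.T4. Psmb9 had a log2 change of 2.81 (SE 0.04, limma adjusted p = 6.28e-17), against 0.74 for Tap1, and 0.513% of tested genes had a higher change. Psmb10, which encodes MECL-1 and lies outside the MHC, stood at 7.34, 9.77, 7.73, 7.84 and 8.21 FPKM in MC38 and at 31.5, 30.2, 28.5, 31.5 and 29.1 FPKM in MC38.T4. It rose 3.69-fold (log2 change 1.77, SE 0.06, adjusted p = 6.16e-13). Psmb8, which encodes LMP7, was the most abundant of the 3 in both lines and rose 2.19-fold, with 50.1 to 62.2 FPKM in MC38 and 117 to 130.3 FPKM in MC38.T4 (log2 change 1.12, SE 0.06, adjusted p = 4.75e-11).

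The constitutive subunits that these replace did not rise with them. Psmb5, the constitutive counterpart of Psmb8, stood at 231, 274, 240, 250 and 268 FPKM in MC38 and at 113, 115, 110, 106 and 104 FPKM in MC38.T4, and fell by 1.19 on the log2 scale (SE 0.05, limma adjusted p = 3.55e-12). Psmb6, the counterpart of Psmb9, fell from 195 ± 17 to 116 ± 7 FPKM (SD, n = 5 each, log2 change -0.74, SE 0.06, adjusted p = 8.21e-09). Psmb7, the counterpart of Psmb10, had overlapping groups of 157 to 186 and 165 to 191 FPKM (log2 change 0.07, SE 0.05, 95% interval -0.03 to 0.18, adjusted p = 0.174). In MC38.T4 the FPKM of Psmb8 was above that of Psmb5 in every library, with ratios of 1.04, 1.13, 1.12, 1.14 and 1.19. In MC38 the ratios were 0.217 to 0.229. The lengths behind FPKM are not given, so which of these transcripts is the more abundant is uncertain. The log2 difference of the ratio was 2.34 (SE 0.04) for Psmb8 to Psmb5, 3.86 (SE 0.07) for Psmb9 to Psmb6 and 1.82 (SE 0.07) for Psmb10 to Psmb7, each with an exact permutation p of 0.00794 (two-sided, 0.00794 adjusted over 5 ratios). The ranges of the single genes already fixed that these ratios separate, so the p is no further evidence, and no share of other gene pairs was computed.

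Expressed as a share of each pair, Psmb8 made up 18.2% ± 0.4 of Psmb8 and Psmb5 in the parent and 52.9% ± 1.2 in the clone (SD, n = 5 each). Psmb9 went from 1.84% ± 0.16 to 21.4% ± 0.9 of its pair, and Psmb10 from 4.55% ± 0.26 to 14.4% ± 1.2. By FPKM, the constitutive transcript thus remained the larger part of the pair for the latter 2 subunits in MC38.T4. The summed level of a pair was lower in MC38.T4 for Psmb5 and Psmb8 (309 ± 23 and 233 ± 8 FPKM) and for Psmb6 and Psmb9 (198 ± 17 and 147 ± 7 FPKM), and higher for Psmb7 and Psmb10 (180 ± 11 and 211 ± 10 FPKM). No test was run on the sums.

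Nlrc5, the transactivator, did not differ between the lines beyond the spread of the libraries. It stood at 5.93, 6.19, 7.13, 6.29 and 7.32 FPKM in MC38 and at 6.32, 5.39, 5.87, 6.56 and 6.11 FPKM in MC38.T4, and the groups overlapped. The log2 change was -0.10 (SE 0.06, 95% interval -0.23 to 0.03, adjusted p = 0.122 by limma). The exact permutation test gave a two-sided p of 0.175. Nlrc5 was called lower after rescaling to TPM (-0.15, limma adjusted p = 0.0329), with quantile normalization (-0.18, adjusted p = 0.011), without MC38 replicate 1 (-0.13, adjusted p = 0.045) and without both libraries that stand apart (-0.16, adjusted p = 0.0216). No setting gave a rise.

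The order of levels by FPKM, which is per gene length with the lengths not given, differed between the lines. In MC38 it ran B2m, H2-D1, H2-K1, Psmb8, Tapbp, Tap2, Tap1, Psmb10, Nlrc5 and Psmb9, and no 2 neighbours in that order overlapped over the 5 libraries, though Psmb10 and Nlrc5 came close (lowest 7.34 and highest 7.32 FPKM). In MC38.T4 the order was B2m, H2-K1, H2-D1, Psmb8, Tapbp, Tap2, Tap1, Psmb9, Psmb10 and Nlrc5. There Tap2 overlapped Tap1, Tap1 overlapped Psmb9 and Psmb9 overlapped Psmb10. These 4 genes had means between 30.2 and 33.6 FPKM in MC38.T4 and between 3.64 and 22.4 FPKM in MC38. MC38 replicate 1 was the lowest MC38 library for 6 of the 10 genes, and also for Psmb5, Psmb6 and Psmb7, and it had the lowest sum of FPKM.

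The 7 genes on chromosome 17 all passed with a higher value in MC38.T4, with a median log2 change of 1.03. H2-D1 was the one whose call and direction depended on the setting. Over all tested genes 86.0% passed in either direction and 43.1% passed with a higher value in MC38.T4. Of the 3 genes outside, Psmb10 rose, B2m fell and Nlrc5 did not pass, with a median of -0.10. B2m was thus the only one of the 10 called lower. With 7 and 3 genes this is a description, and no test of inside against outside was run.

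The other genes of the interval give a background for the 7. In RefSeq order on chromosome 17, the tested genes from Tapbp to H2-D1 and 5 beyond each end included 50 that are not among the 10. Of these 32 rose, 10 fell and 8 did not pass, with a median log2 change of 0.46, against 43.1% of all tested genes higher and 42.9% lower. Among the 32, Gm19412 (0.850 to 1.68 FPKM) was under 1 FPKM in every MC38 library. It passed the filter through MC38.T4 alone, so the filter fixed its direction. Of the 40 between Tapbp and H2-D1, 23 rose, 10 fell and 7 did not pass (median 0.29). The largest rises were those of the class I genes H2-Q7 (31.3 to 163 FPKM) and H2-Q5 (4.71 to 22.3), of Atf6b, a membrane-bound stress transcription factor (4.09 to 21.7), and of Rnf5, a ubiquitin ligase of the endoplasmic reticulum (2.82 to 14.6). The largest falls were those of the prefoldin gene Pfdn6 (120 to 43.3 FPKM), 1110038B12Rik (187 to 103), Gpank1 (9.81 to 6.81) and Wdr46 (21.3 to 15.4). Psmb9, Tap1, Psmb8 and Tap2 followed each other with no other tested gene between them.

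Direction changed from gene to gene along the interval. Between Tapbp and H2-K1, 3 of 7 genes rose and 3 fell (median log2 change 0.11). Between H2-K1 and Psmb9, 3 of 6 rose and 2 fell (0.07). Between Tap2 and H2-D1, 17 of 27 rose and 5 fell (0.40). All 5 genes beyond H2-D1 rose (median 1.00), and 4 of them were H2-Q class I genes, close copies of each other whose shared reads make them uncertain. The log2 change of H2-D1 next to them was 0.08.

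**Figure D3:**
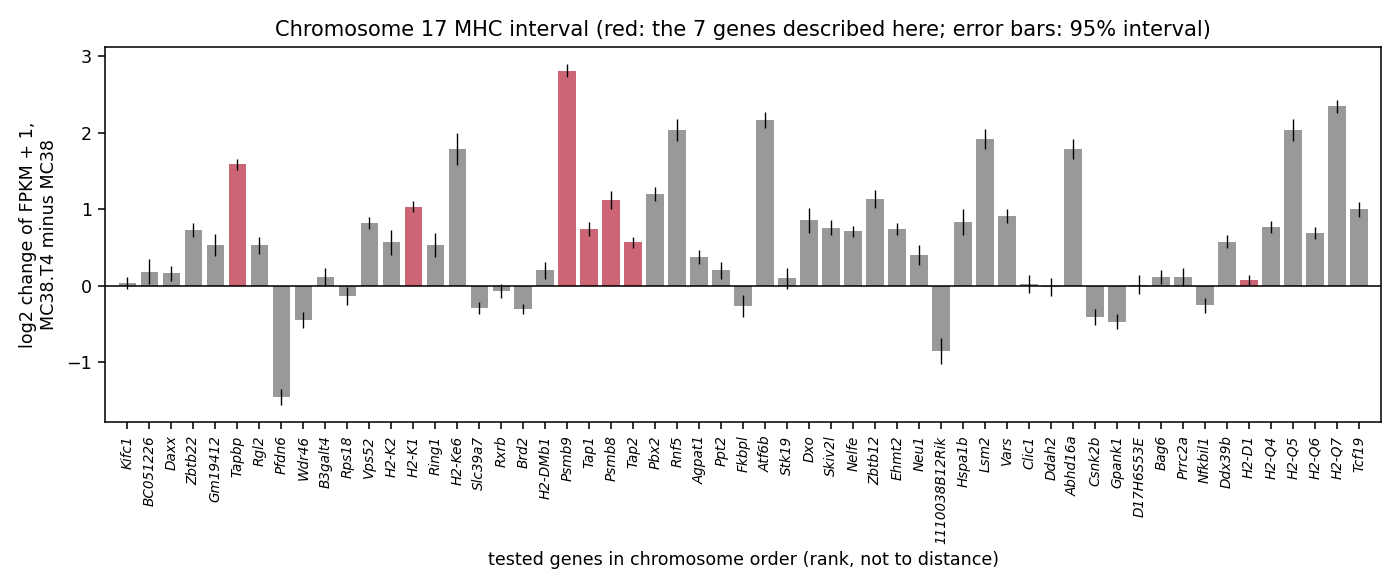
Log2 change of FPKM + 1 (MC38.T4 minus MC38) for the tested genes in chromosome order around the MHC on chromosome 17, with the 7 genes described here in red, other genes in grey and 95% intervals as lines. Rises and falls lie side by side between Tapbp and Psmb9, and H2-D1 (0.08) is the smallest of the red bars.

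The genes next to the 3 outside the MHC went both ways. Of the 5 nearest tested genes on each side of B2m, 8 of 10 fell, like B2m, and 1 rose (median log2 change -0.37). Around Psmb10, which rose, 6 of 10 fell and 2 rose (median -0.30). Around Nlrc5, 5 of 10 rose and 3 fell (median 0.05). Of all 30 neighbours 8 rose and 17 fell, against 43.1% of tested genes higher and 42.9% lower. The largest falls were those of Spata5l1 (31.7 to 7.56 FPKM), Eif3j1 (37.9 to 16.6) and Sord (26.4 to 11.7), all beside B2m, and of the metallothionein gene Mt1 beside Nlrc5 (252.4 to 120.2). The largest rises were those of the chemokine gene Cx3cl1 beside Nlrc5 (0.685 to 6.03 FPKM), Nutf2 (56.1 to 109) and Cenpt (7.22 to 14.6) beside Psmb10, and Nup93 beside Nlrc5 (28.7 to 49.7). Cx3cl1 was under 1 FPKM in every MC38 library and passed the filter through MC38.T4 alone, so the filter fixed its direction.

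Among 34 tested partners of the 10 genes 19 rose, 9 fell and 6 did not pass, which is 82.4% called against 86.0% of all tested genes. In peptide loading 5 of 7 rose and 2 fell (median log2 change 0.37). Erap1, the aminopeptidase that trims peptides in the endoplasmic reticulum, stood at 3.21, 3.05, 3.06, 2.84 and 3.27 FPKM in MC38 and at 16.0, 15.2, 16.4, 15.2 and 14.8 FPKM in MC38.T4, and rose 5.03-fold (log2 change 2.02, SE 0.04, limma adjusted p = 3.66e-15). The groups were far apart. Calr, which encodes calreticulin of the loading complex, rose from 130 ± 7 to 419 ± 13 FPKM (SD, n = 5 each), and Tapbpl, a tapasin relative that edits peptides, from 2.84 ± 0.30 to 6.95 ± 0.18 FPKM. Hspa5, the general chaperone BiP, fell from 1586 ± 33 to 545 ± 23 FPKM, and Canx, calnexin, which folds new heavy chains, from 268 ± 4 to 250 ± 7 FPKM.

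Of 8 other proteasome genes 2 rose, 3 fell and 3 did not pass. The 2 that rose, Psme1 (29.5 ± 1.6 to 60.4 ± 3.5 FPKM) and Psme2 (76.5 ± 6.5 to 139 ± 8), encode the PA28 activator that interferon gamma induces. Psme3, which encodes the nuclear PA28 gamma, fell from 190 ± 4 to 124 ± 3 FPKM, beside Psmb5 and Psmb6. Pomp, the assembly chaperone of new proteasomes, stood at 120 ± 11 and 127 ± 2 FPKM (adjusted p = 0.157). Of 6 cytosolic peptidases 4 rose and 1 fell, none of them 2-fold. Nrd1 rose from 51.5 to 76.4 FPKM, Tpp2 from 35.2 to 47.5 and Lap3 from 47.4 to 61.2, and Thop1, which degrades peptides before they reach TAP, fell from 20.5 to 15.0.

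Among 13 tested transcription regulators 8 rose, 3 fell and 2 did not pass (median log2 change 0.29). The subunits of the RFX complex, which binds the X box of class I promoters together with NLRC5, went both ways: Rfx5 rose from 2.34 ± 0.23 to 7.62 ± 0.14 FPKM and Rfxank from 2.43 ± 0.23 to 3.43 ± 0.18, while Rfxap fell from 10.2 ± 0.7 to 4.77 ± 0.32 (SD, n = 5 each). The same held for NF-Y, which binds the Y box. Nfya rose from 12.1 to 20.5 FPKM and Nfyc from 20.9 to 25.9, while Nfyb fell from 24.2 to 13.5. Of the NF-kB subunits, Nfkb1, the p50 precursor, rose from 28.0 ± 1.5 to 44.8 ± 1.4 FPKM (log2 change 0.66, SE 0.04, limma adjusted p = 3.61e-10), and Rela, p65, fell from 97.1 ± 4.2 to 38.8 ± 1.8 FPKM (log2 change -1.30, SE 0.04, adjusted p = 1.53e-13). Neither gene's groups overlapped. Ciita, the class II relative of Nlrc5, lay below the filter, with a highest value of 0.018 FPKM.

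**Figure D4:**
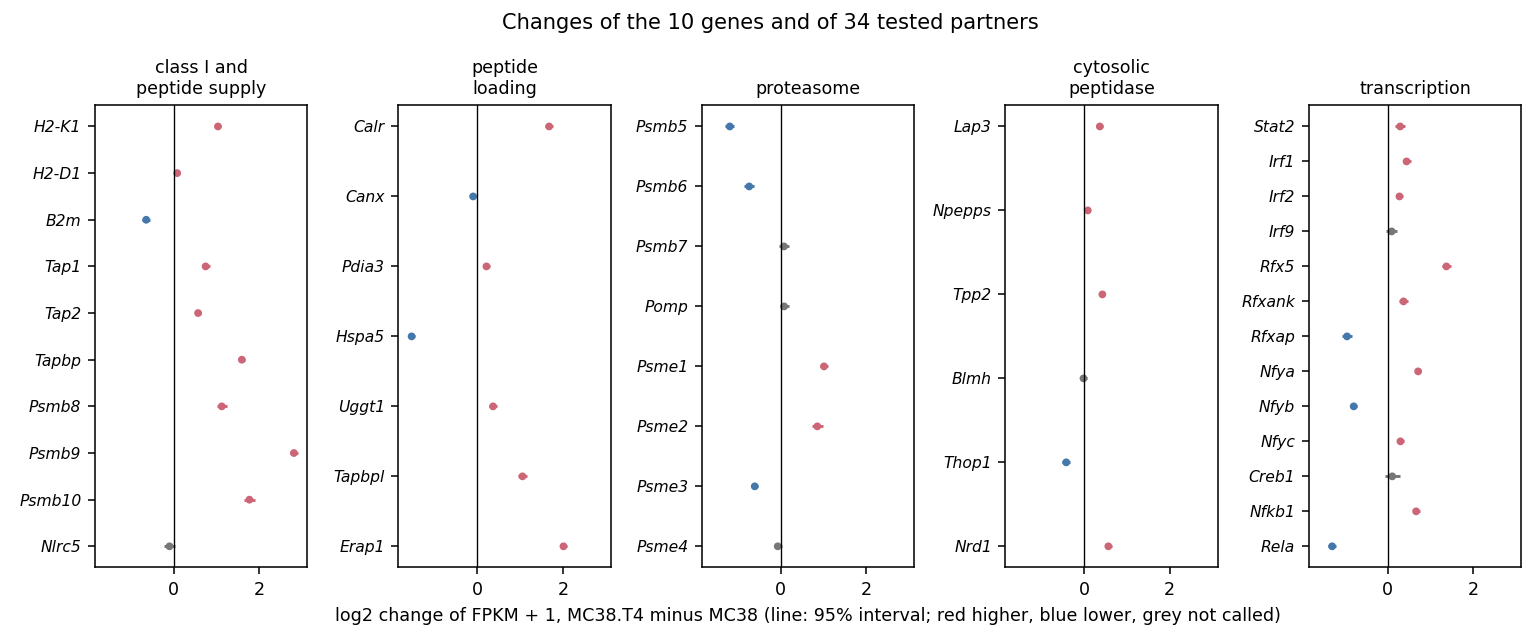
Log2 change of FPKM + 1 (MC38.T4 minus MC38, line: 95% interval) for the 10 genes and 34 tested partners, with genes called higher in red, lower in blue and not called in grey. Among the partners Erap1 (2.02), Calr (1.68) and Rfx5 (1.37) lie farthest right, and Hspa5 (-1.54), Rela (-1.30) and Psmb5 (-1.19) farthest left.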

How the data were processed

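RNA of cultured MC38 and MC38.T4 cells was polyA-selected and made into stranded libraries, per the labels' protocols. The authors deposited FPKM for 54343 genes, 1 column per library, mapped by library name. The submitters' processing notes name GRCm39 and DESeq2, with no version or role. Aligner, counter, annotation and filters: not given in the sources used here. FPKM keeps no counts, so no counting interval was attached and no count test was run.

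Genes with at least 1 FPKM in at least 5 libraries (11110) were fitted as log2(FPKM + 1) with limma 3.58.1 (R 4.3.3), with a group term, trend and robust moderation, two-sided, and Benjamini-Hochberg adjustment over all of them at 0.05. The scale understates changes of low genes. In a test on simulated data, 200 of 11110 genes were given a change. Of genes given a log2 change of 0.25, 73% were called, as were 99% of genes given a change of 1. Unchanged genes made up 6.01% of the calls. In the measured data 86.0% of genes were called, far more than were changed in the simulation, so these shares may not hold there. For 5 ratios of 2 genes within a library, with no pseudocount, all assignments of 5 of 10 libraries were enumerated in an exact permutation test.

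Named were the 10 genes, the constitutive catalytic subunits and RFX genes, the largest changes of each of 4 partner groups (3 in each direction), and the largest 4 in each direction among interval and flanking genes. Pomp, Ciita, Nfyc and Gm19412 were named after their values were seen. The members and lists were chosen with earlier results of these data known. Nrdc is listed in the table as Nrd1. A gene of the partner list is not reported here and was left out of its counts. Gene order came from RefSeq on GRCm38.p6 (10835 of 11110 tested genes matched), and no converted coordinates were used. Replicate numbers did not pair the libraries. The settings varied were the pseudocount (0.1), the filter (none, or 5 FPKM), the scaling (TPM, quantile, equal medians), moderation (plain eBayes), the replicate block, leaving out each library and, chosen after seeing the data, leaving out 2 libraries. Tables, exact tests and plots were made in Python 3.11.15 (SciPy 1.17.1; matplotlib 3.10.9; pandas 2.3.3; NumPy 2.4.6).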

Additional observations from a re-analysis of the deposited data

Results flagged for a closer look

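Of 30 groups of 5 libraries examined for the 10 genes and 5 ratios, 3 held 1 library far from the other 4, and chance flags about 1 in 20 groups. All 3 were MC38 libraries. Tap2 in MC38 replicate 1 was 20.98 FPKM, against 22.5 to 23.01 in the others. Tapbp in MC38 replicate 4 was 29.3 FPKM, against 31.6 to 32.3. The Psmb10 to Psmb7 ratio in MC38 replicate 2 was 0.0526, against 0.0452 to 0.0469. Each of these values lay far below all MC38.T4 libraries.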

How the results depend on the processing

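H2-K1, B2m, Tap1, Tap2, Tapbp, Psmb8, Psmb9 and Psmb10 kept their direction and their side of the threshold under all 19 alternatives run. H2-D1 did so under 9, lost its call under 9 and turned to -0.056 with quantile normalization. Its losses included 6 of 10 fits without 1 library: MC38 replicate 1, 4 or 5, or MC38.T4 replicate 1, 2 or 5, with log2 changes of 0.07 to 0.08 and adjusted p of 0.0512 to 0.0718. With the replicate block its adjusted p was 0.0668. Nlrc5 stayed negative throughout, from -0.18 to -0.07, and was called in 4 settings. The causes were not tested. The count of called genes among the 10 lay between 8 and 10, among the partners between 27 and 30, in the interval between 35 and 43 and in the flanks between 23 and 26. Under the replicate block, the ratio differences for H2-K1 to B2m (1.68), H2-D1 to B2m (0.73), Psmb8 to Psmb5 (2.34), Psmb9 to Psmb6 (3.86) and Psmb10 to Psmb7 (1.82) kept their size, and the paired exact p of 0.0625 is the smallest that 5 pairs can give, so it cannot pass. Same-numbered libraries had deviation correlations of -0.13 to 0.14, and 2 of 5 MC38 libraries correlated best with their own number, so the numbers were not taken as pairs. The median log2 change of all tested genes moved to -0.04 with TPM and with quantile normalization and to -0.03 with equal medians. Read depth is not given, which limits what can be said of low genes.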
